A study of Mus musculus with 2 samples.

Results

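The interleukin and TNF family genes are the secreted and membrane-bound cytokines, their receptors and their decoys that carry most short-range signals between immune cells and the other cells of the liver. They were chosen by symbol alone: every gene listed in either library whose symbol starts with Il and a number, with Tnfsf and a number or with Tnfrsf and a number, together with Tnf, Lta, Ltb and Ltbr and without Il34. This gave 107 of the 21722 genes listed in all, with 104 listed in each library. Of the 107, 42 are ligands, 54 are receptors or receptor subunits, 8 are inhibitors or decoys, and 3 are neither, namely the antisense RNAs Il1bos and Tnfsf13os and Il4i1, an enzyme that breaks down amino acids.

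As background, IL-1, IL-33 and IL-36 act through receptors that share the accessory chain Il1rap, IL-18 acts through Il18r1 and Il18rap, and the receptor antagonist Il1rn, the decoy receptor Il1r2 and the IL-18 binding protein Il18bp hold IL-1 and IL-18 back. Interleukins of the gp130, common gamma chain, IL-10, IL-12 and IL-13 groups signal through paired receptor chains and the JAK-STAT pathway, and one shared chain such as Il6st or Il2rg serves several ligands. TNF family ligands bind trimeric receptors that feed into NF-kB or into cell death, and in liver they are studied for hepatocyte death, stellate cell activation and lymphoid organization.

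Gene expression was measured by scRNA-seq in liver non-parenchymal cells (NPCs) from 1 normal and 1 fibrotic mouse, both male C57BL/6 mice that were 8 weeks old. The normal mouse received intraperitoneal olive oil and the fibrotic mouse received CCl4, a toxin that kills hepatocytes, with 2 injections per week over 6 weeks. NPCs were set free by collagenase perfusion in a pair of steps and most hepatocytes were spun out at low speed, so both samples share the loss of hepatocytes and the stress of digestion. With 1 library per condition, condition, mouse and preparation cannot be told apart, no test between conditions was possible, and every difference given here is one between these libraries.

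After cells with a mitochondrial share of 10% or more were left out, 7471 normal cells with a median of 4226 unique molecular identifiers (UMIs) and 6132 fibrosis cells with a median of 5775.5 UMIs remained. The members took 116059 UMIs, or 0.281% of all UMIs, in the normal library and 159937 UMIs, or 0.312%, in the fibrosis library. A level is given as UMIs of a gene per 10000 UMIs of a cell class, and ranges in parentheses are exact 95% intervals that cover counting error only. Cells of a cluster were given a class name from marker genes that include no member, so a class is called LSEC-like (liver sinusoidal endothelial cells), Kupffer-like (resident macrophages), stellate/fibroblast-like (hepatic stellate cells, HSCs, with fibroblasts) and so on, and classes of at least 50 cells were used. There were 19 such classes with 5606 cells in the normal and 20 with 4521 cells in the fibrosis library, and 17 were present in both. The class in which a member had its highest level, with at least 10 UMIs, is called its leading class, and fibrosis over normal ratios were formed within classes of the same name.

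Some classes differ between the libraries in ways that touch the values below. The CD4 or other T-like class was led by Cd40lg and Zbtb16 in the normal library and by Cd163l1, Trdc and Tcrg-C1, genes of gamma delta T cells, in the fibrosis library. The leading genes of Treg-like cells included Foxp3 and the gamma delta gene Cd163l1 in normal, where 14 of 64 cells held a Tcrg-C1 UMI, and Foxp3, Ctla4 and Cd4 in fibrosis. Neutrophil-like cells were led by Retnlg, Cxcr2 and Mmp9 in normal and by the granule genes Ngp, Camp and Ltf in fibrosis. A fibrosis cluster of 73 cells led by Tarm1 and Slfn4 and a normal cluster of 24 cells led by Ltf, both closest to the neutrophil markers, were left out of this class for RNA of another cell type; with them, 4 of the 7 members past the limits in neutrophil-like cells (Il18bp, Il3ra, Tnf and Tnfrsf11b) stayed past them. The normal NK-like class held 2 clusters, one of 120 cells led by Klra5, Cd7 and Klrb1b and one of 99 cells led by Klra4 and Klra8, whereas the 96 fibrosis cells formed a single cluster led by Cma1 and Klra8. For all NK-like ratios below, a change within NK cells and a change in this mixture cannot be told apart. Monocyte-like cells were 1 cluster of 107 cells in the normal library and 2 clusters of 269 and 105 cells in the fibrosis library. The cluster of 269 was led by the antibody genes Ighg2b and Igkc with Cx3cr1, and the other, like the normal cluster, by Ace. Of the 12 members that passed the ratio limits defined below in monocyte-like cells, 4 (Il10, Il10rb, Il18bp and Il7r) stayed past them without the cluster of 269 cells, and 11 without that of 105. The stellate/fibroblast-like class held 60 stellate and 44 portal fibroblast cells in normal, and 57 stellate, 78 portal fibroblast and 58 smooth muscle cells in fibrosis. The normal stellate cluster was led by Ighm, Ccl5 and Ccl4, which are not stellate markers. Of the 7 members past the limits in this class, 4 stayed past them in the stellate clusters alone and 5 in the portal fibroblast clusters alone. Of the 908 fibrosis LSEC-like cells, 169 formed a cluster led by the DNA replication genes Dtl, Cdt1 and Mcm5; without it, the LSEC-like ratios past the limits given below stayed past them. Recruited macrophage-like, mesothelial-like and cDC2-like classes of 50 or more cells were present only in the fibrosis library, and migratory DC-like and plasma cell-like classes only in the normal one.

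Markers of other cell types also moved between the libraries in nearly every class. In B-cell-like cells, the summed level of the mesenchymal markers was 1.76 in normal and 18 in fibrosis, that of the macrophage markers 8.79 and 37.8, and that of the hepatocyte markers 337 and 28. In LSEC-like cells the macrophage markers were at 4.75 and 15.1, the mesenchymal markers at 6.3 and 10.3 and the hepatocyte markers at 169 and 12.1. The counts that follow are over the 17 compared classes, with the own class of each list included. The mesenchymal markers were higher in fibrosis in 16 and lower in central vein EC-like cells. The macrophage markers were higher in 16 and at the same level in stellate/fibroblast-like cells, and the hepatocyte markers were lower in 17. The endothelial markers were higher in 13 and lower in 4, and the neutrophil markers were higher in 5 and lower in 12. The part of this RNA in the ratios below was not tested.

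Many members sit side by side in the genome (mouse build mm10, that is GRCm38): 55 of the 107 lie in 22 clusters with at most 500 kb between neighbours. The receptors Il1r2, Il1r1, Il1rl2, Il1rl1, Il18r1 and Il18rap share 478 kb of chromosome 1 (chr1:40074079-40551705), and Ltb, Tnf and Lta share 10.9 kb of chromosome 17 (chr17:35194439-35205351). Some neighbours had different sources. Il1a and Il1b, both of chr2:129299610-129375748, were led by endothelial-like and by neutrophil-like cells respectively, and Ltb was led by T-like cells while Tnf was led by migratory DC-like cells in normal and by neutrophil-like cells in fibrosis. The 250 bases before the start of these 4 genes (RefSeq, GRCm38.p6, each read 5′ to 3′ on the strand of its gene) are printed because the genes of each pair are neighbours with different sources; capitals mark GGGNNNNNCC, a pattern of NF-kB sites, and TTCNNNGAA, a pattern of STAT sites, searched on both strands.

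Tnf: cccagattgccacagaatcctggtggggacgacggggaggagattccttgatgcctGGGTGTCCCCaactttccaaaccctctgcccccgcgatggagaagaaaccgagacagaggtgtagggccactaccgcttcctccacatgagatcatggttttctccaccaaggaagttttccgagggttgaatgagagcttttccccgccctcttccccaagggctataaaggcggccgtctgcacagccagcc
Ltb: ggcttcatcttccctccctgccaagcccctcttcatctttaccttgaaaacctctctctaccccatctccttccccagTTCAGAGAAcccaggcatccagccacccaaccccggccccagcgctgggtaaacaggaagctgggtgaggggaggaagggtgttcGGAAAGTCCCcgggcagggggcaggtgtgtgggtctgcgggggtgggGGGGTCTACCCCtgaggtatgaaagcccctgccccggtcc
Il1a: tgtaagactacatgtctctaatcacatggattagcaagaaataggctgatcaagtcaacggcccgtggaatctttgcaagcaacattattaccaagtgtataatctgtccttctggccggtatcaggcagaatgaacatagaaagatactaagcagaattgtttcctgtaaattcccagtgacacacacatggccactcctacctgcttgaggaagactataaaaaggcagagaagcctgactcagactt
Il1b: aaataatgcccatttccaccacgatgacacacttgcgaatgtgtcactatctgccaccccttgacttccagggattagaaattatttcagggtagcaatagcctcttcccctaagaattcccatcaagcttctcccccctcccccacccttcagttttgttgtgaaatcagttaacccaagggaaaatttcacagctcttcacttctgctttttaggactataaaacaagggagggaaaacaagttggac

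The Tnf window, chr17:35202008-35202257 on the minus strand, held 1 match to GGGNNNNNCC, and the Ltb window, chr17:35194257-35194506 on the plus strand, held 4 overlapping or separate matches to it and 1 to TTCNNNGAA. Neither pattern occurred in the windows of Il1a (chr2:129309973-129310222) and Il1b (chr2:129371140-129371389), both on the minus strand. Of all 32851 promoter windows of this length, 45.8% held GGGNNNNNCC and 7.02% held TTCNNNGAA, against 44.7% and 13.6% of the 103 windows found for 85 of the members. A match is a run of letters and not a measured binding site.

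**Figure D1:**
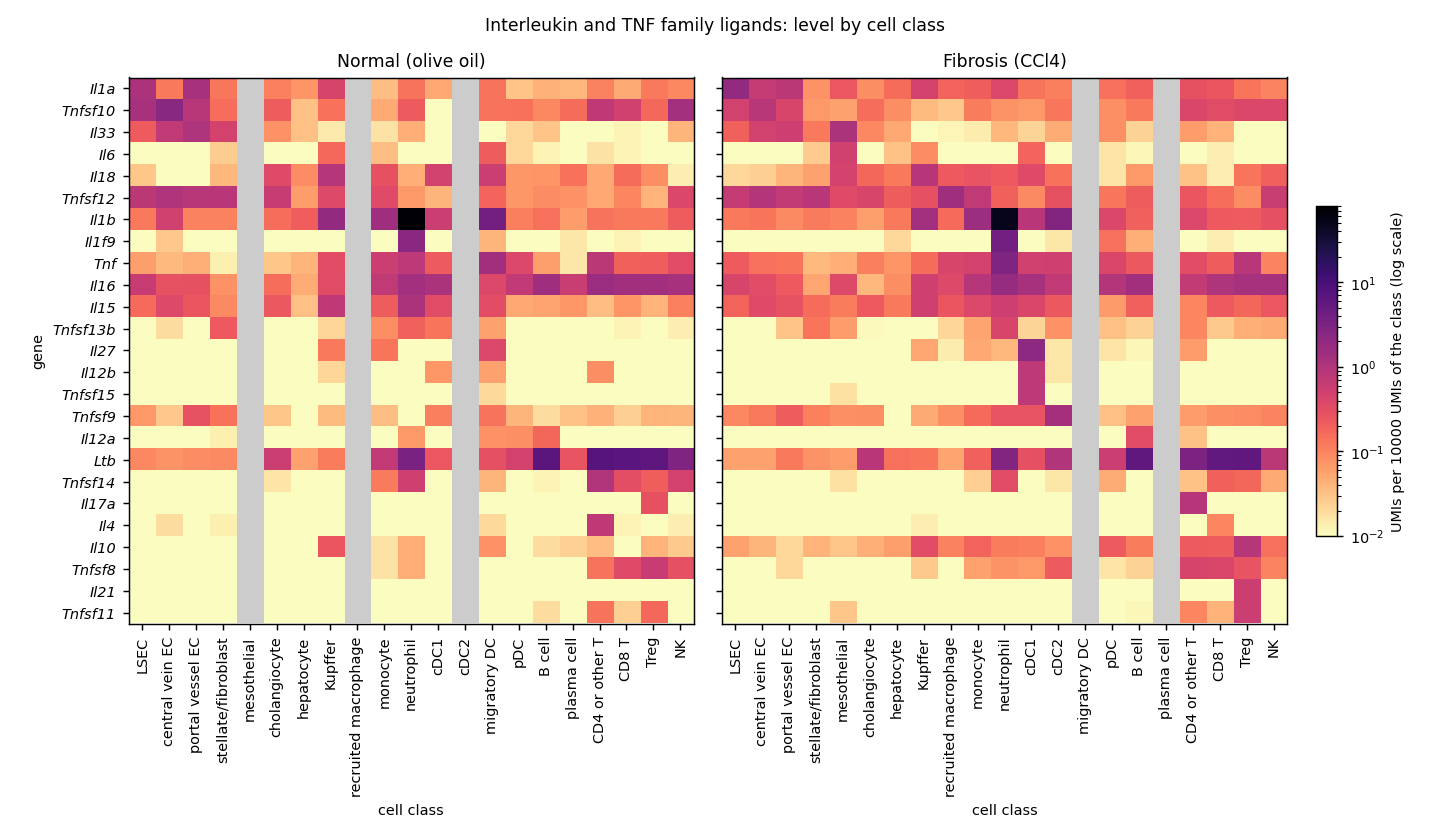
Heat maps of the level (UMIs per 10000 UMIs of the class, log colour scale; levels at or under 0.01 have the palest colour) of 25 ligands, rows, in the cell classes, columns, of the normal and the fibrosis library; grey columns are classes under 50 cells in that library. Il1b is darkest in neutrophil-like cells in both libraries (72.6 and 49.1), Ltb in lymphoid classes, and Il27, Il12b and Tnfsf15 are dark in cDC1-like cells of the fibrosis library, where for each gene 1 cell held all or nearly all UMIs.

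The IL-1 family ligands were led by neutrophil-like, endothelial-like and Kupffer-like cells and, for Il33 in fibrosis, by mesothelial-like cells. Il1b, the secreted form of IL-1, had its highest level in neutrophil-like cells, 72.6 (70.1 to 75.2) in normal and 49.1 (46.4 to 51.9) in fibrosis, and the next classes were far lower, with 3.79 in normal migratory DC-like cells and 2.72 in fibrosis cDC2-like cells. After each cell was thinned to 1000 UMIs, an Il1b UMI was found in 94% (89.3 to 97.1) of normal and 81.9% (73.7 to 88.4) of fibrosis neutrophil-like cells, against 1.56% (0.716 to 2.94) and 1.34% (0.437 to 3.1) of B-cell-like cells, which should lack it (unthinned 95.2% and 83.8% against 4.15% and 4.79%). The clusters left out of this class held Il1b at 29.2 (26.7 to 32.0) in 24 normal and 23.8 (20.8 to 27.2) in 73 fibrosis cells, and with them its levels were 61.1 and 42.5 (ratio 0.696, 0.655 to 0.739). Median depths were 2487 and 1920 UMIs in neutrophil-like and 2757 and 2241 UMIs in B-cell-like cells. Kupffer-like cells held Il1b at 1.88 in normal and 1.34 in fibrosis (ratio 0.716, 0.604 to 0.848). Il1f9, the IL-36 gamma ligand, had its highest level in neutrophil-like cells, 2.29 in normal and 3.78 in fibrosis (ratio 1.65, 1.24 to 2.2), which held 71.1% and 56.2% of its UMIs.

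Il1a, which is active while still bound to the cell, was an endothelial transcript here. Its level in LSEC-like cells was 1.11 in normal and 1.9 in fibrosis (ratio 1.7, 1.58 to 1.84), in portal vessel EC-like cells 1.21 in normal and 0.80 in fibrosis (ratio 0.663, 0.50 to 0.872) and in central vein EC-like cells 0.121 in normal and 0.639 in fibrosis (ratio 5.29, 2.98 to 10.2). The portal vessel and LSEC-like classes were thus close to each other in normal, whereas LSEC-like cells alone led in fibrosis. Il33, a nuclear alarmin released by damaged cells, was led by portal vessel EC-like cells in normal and by mesothelial-like cells, which cover the liver surface, in fibrosis. Its values were 1.06 in normal and 0.547 in fibrosis (ratio 0.515, 0.37 to 0.709) in portal vessel EC-like cells, 0.716 in normal and 0.486 in fibrosis (ratio 0.678, 0.498 to 0.926) in central vein EC-like cells and 1.11 (0.963 to 1.28) in fibrosis mesothelial-like cells. In stellate/fibroblast-like cells Il33 was 0.475 in normal and 0.123 in fibrosis (ratio 0.259, 0.157 to 0.426), and it was lower in fibrosis in stellate clusters alone, with a ratio of 0.288 (0.0699 to 0.891) on 16 and 4 UMIs, and in portal fibroblast clusters alone, with 0.0658 (0.0194 to 0.179) on 21 and 5 UMIs. Il18, which needs cleavage by an inflammasome, was led by Kupffer-like cells at 0.902 in normal and 0.866 in fibrosis (ratio 0.961, 0.763 to 1.21), with no difference beyond counting error. Cholangiocyte-like cells held Il18 at 0.352 in normal and 0.172 in fibrosis (ratio 0.489, 0.317 to 0.734).

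The TNF family ligands were led by endothelial, myeloid and lymphoid classes and, for Tnfsf13b in normal, by stellate/fibroblast-like cells. Tnfsf10 (TRAIL), a death ligand, was led by central vein EC-like cells, and all 3 endothelial classes held less of it in fibrosis. The Tnfsf10 level was 2.39 in normal and 0.857 in fibrosis (ratio 0.359, 0.294 to 0.437) in central vein EC-like cells. In LSEC-like cells it was 1.2 in normal and 0.489 in fibrosis (ratio 0.408, 0.364 to 0.457). In portal vessel EC-like cells it was 0.842 in normal and 0.415 in fibrosis (ratio 0.493, 0.337 to 0.711). NK-like cells, a known TRAIL source in liver, held 1.32 in normal and 0.395 in fibrosis (ratio 0.30, 0.126 to 0.616), and stellate/fibroblast-like cells 0.154 in normal and 0.0671 in fibrosis (ratio 0.436, 0.199 to 0.991), a ratio that was 1.07 once cells with high doublet scores were removed. Tnfsf12 (TWEAK) was spread over endothelial and myeloid classes. It was 1.01 (0.833 to 1.22) in central vein EC-like cells in normal and 0.927 in fibrosis, where recruited macrophage-like cells led with 1.43 (1.31 to 1.54), and monocyte-like cells held 0.351 in normal and 0.707 in fibrosis (ratio 2.02, 1.28 to 3.33). Against the fibrosis monocyte cluster led by Ace alone the ratio was 0.467 (0.168 to 1.14). Tnfsf12 shares exon sequence on the same strand with Tnfsf13 through the readthrough gene Tnfsfm13, so its counts are uncertain, as are those of Tnfsf13 (APRIL), which reached only 0.026 in fibrosis recruited macrophage-like cells with 25 UMIs in the library.

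Tnf itself was led by migratory DC-like cells in normal, at 1.4 (1.09 to 1.77), and by neutrophil-like cells in fibrosis. In neutrophil-like cells the level of Tnf was 0.77 in normal and 2.98 in fibrosis (ratio 3.87, 2.56 to 5.97), and in LSEC-like cells it was 0.0601 in normal and 0.221 in fibrosis (ratio 3.67, 2.74 to 4.99). Treg-like cells held 0.207 in normal and 0.837 in fibrosis (ratio 4.04, 1.46 to 13.8), with 5 and 19 UMIs. Tnf was lower in fibrosis in Kupffer-like cells, 0.317 in normal and 0.157 in fibrosis (ratio 0.495, 0.308 to 0.789), and in CD4 or other T-like cells, 0.779 in normal and 0.316 in fibrosis (ratio 0.405, 0.188 to 0.78). Tnf thus moved in opposite directions between classes, and its level in monocyte-like cells was 0.568 in normal and 0.472 in fibrosis (ratio 0.832, 0.568 to 1.25), with 0.505 and 0.281 in the fibrosis clusters of 269 and 105 cells. In LSEC-like cells the neutrophil markers were at 0.596 and 0.434 and the macrophage markers at 4.75 and 15.1. The part of this RNA in the LSEC-like value was not tested.

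Ltb, the membrane-bound partner of Lta in lymphotoxin, was carried by lymphoid classes. Its levels were 7.18 in normal and 3.1 in fibrosis (ratio 0.431, 0.346 to 0.532) in CD4 or other T-like cells, 6.85 in normal and 5.57 in fibrosis (ratio 0.814, 0.715 to 0.926) in CD8 T-like cells, 6.43 in normal and 5.8 in fibrosis (ratio 0.902, 0.81 to 1.0) in B-cell-like cells and 6.34 in normal and 5.9 in fibrosis (ratio 0.93, 0.732 to 1.18) in Treg-like cells. NK-like cells held 2.93 in normal and 0.791 in fibrosis (ratio 0.27, 0.152 to 0.449) and monocyte-like cells 0.685 in normal and 0.20 in fibrosis (ratio 0.292, 0.192 to 0.447). Without the fibrosis monocyte cluster of 269 cells the latter ratio was 0.513 (0.264 to 0.946), which is not past the limit of 2 times. After thinning, 47.1% (43 to 51.3) of normal and 40.5% (35.5 to 45.7) of fibrosis B-cell-like cells had an Ltb UMI, against 0.652% (0.337 to 1.14) and 0.771% (0.31 to 1.58) of LSEC-like cells, which were deeper (medians 5290 and 8025 UMIs; unthinned 76.5% and 67.6% against 4.83% and 4.96%). Lta was scarce, with 55 and 43 UMIs in the libraries and a highest class level of 0.166 in normal Treg-like cells. Tnfsf14 (LIGHT) was led by CD4 or other T-like cells in normal, where it was 0.991 in normal and 0.0316 in fibrosis (ratio 0.0319, 0.00080 to 0.181). Its highest level in fibrosis, 0.344 in neutrophil-like cells, rested on 9 UMIs. In NK-like cells Tnfsf14 was 0.47 in normal and 0.0494 in fibrosis (ratio 0.105, 0.00259 to 0.626).

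Among the remaining TNF family ligands, Tnfsf9 (4-1BB ligand) was led by portal vessel EC-like cells in normal, at 0.278 (0.197 to 0.382), and by cDC2-like cells in fibrosis, at 1.29 (1.02 to 1.6). In neutrophil-like cells no Tnfsf9 UMI was counted in normal and 7 in fibrosis, which is at least 3.94-fold higher than the level 3 counts would give. With the neutrophil clusters set aside above, the ratio of Tnfsf9 was 3.97 (0.905 to 23.8) on 3 and 7 UMIs. Tnfsf13b (BAFF), the survival factor of B cells, was led by stellate/fibroblast-like cells in normal, 0.231 in normal and 0.13 in fibrosis (ratio 0.565, 0.311 to 1.06), and by neutrophil-like cells in fibrosis, 0.204 in normal and 0.42 in fibrosis (ratio 2.06, 0.777 to 5.63). Tnfsf11 (RANKL) was highest in Treg-like cells, 0.166 in normal and 0.573 in fibrosis (ratio 3.45, 1.07 to 14.5), on 4 and 13 UMIs. Tnfsf8 (CD30 ligand), the highest of the members outside the naming rule, reached 0.622 in normal Treg-like cells.

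Ligands of the other interleukin groups were scarce, apart from Il16 and Il15. Il16, a lymphocyte chemoattractant, was found in all lymphoid classes, with 1.45 in normal and 1.41 in fibrosis (ratio 0.976, 0.779 to 1.22) in B-cell-like cells and 1.57 in normal and 0.664 in fibrosis (ratio 0.423, 0.256 to 0.666) in CD4 or other T-like cells, and reached 1.76 in fibrosis neutrophil-like cells. Il15, which maintains NK and CD8 T cells, was led by neutrophil-like cells at 1.11 in normal and 0.535 in fibrosis (ratio 0.482, 0.246 to 0.887), with a ratio of 0.713 (0.433 to 1.14) once the clusters set aside above were added, and Kupffer-like cells followed at 0.743 in normal and 0.521 in fibrosis (ratio 0.701, 0.533 to 0.923). Il7, the lymphocyte survival factor, was led by cholangiocyte-like cells at 0.0737 in normal and 0.0833 in fibrosis (ratio 1.13, 0.549 to 2.26). Il17d was led by stellate/fibroblast-like cells at 0.269 in normal and 0.112 in fibrosis (ratio 0.415, 0.23 to 0.762), but its ratio was 1.15 in stellate clusters alone and 0.233 (0.112 to 0.478) in portal fibroblast clusters alone. Il10, an inhibitory cytokine, was led by Kupffer-like cells in normal and Treg-like cells in fibrosis. Its levels were 0.26 in normal and 0.341 in fibrosis (ratio 1.31, 0.873 to 2.01) in the former and 0.0415 in normal and 0.925 in fibrosis (ratio 22.3, 3.59 to 922) in the latter, with 1 and 21 Treg-like UMIs from 10 fibrosis cells. Beyond Treg-like cells, Il10 was higher in fibrosis in monocyte-like cells, 0.0167 in normal and 0.186 in fibrosis (ratio 11.1, 1.92 to 448), and in CD4 or other T-like cells, 0.0339 in normal and 0.221 in fibrosis (ratio 6.53, 1.66 to 30.4), and pDC-like and CD8 T-like cells held 0.226 and 0.219 in fibrosis against no UMI in normal (at least 7.46-fold and 6.01-fold higher than the level of 3 counts). The macrophage markers of these classes were at 19.8 and 114 in monocyte-like, 5.74 and 52.3 in CD4 or other T-like, 5.56 and 24.1 in pDC-like and 6.92 and 32.6 in CD8 T-like cells, and their part was not tested.

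Several levels rested on 1 or a few cells. In fibrosis cDC1-like cells Il27 was at 2.2 (1.79 to 2.68), but all 98 UMIs came from 1 of 50 cells, which had 21555 UMIs in all and also held all 34 Tnfsf15 and all 22 Tnf UMIs of the class, 7 of its 8 Il6 UMIs, and 298 Ifnb1 and 154 Ifnl2 UMIs. Of the 34 Il12b UMIs in that class, 33 came from another cell. Without the 3 cells that held most UMIs of Il12b, the class had none left. Normal levels in cDC1-like cells were 0.0101 for Il27, 0.0706 for Il12b and 0.222 for Tnf, and Tnfsf15 had no UMI. In normal, Il27 was led by migratory DC-like cells at 0.375 (0.226 to 0.585), and Il12b reached 0.0847 in CD4 or other T-like cells. Il6 was led by migratory DC-like cells in normal, 0.217 (0.108 to 0.388), and by mesothelial-like cells in fibrosis, 0.505 (0.405 to 0.623), where 53 of 87 UMIs came from 1 cell. Il21 in fibrosis Treg-like cells, 0.573 (0.305 to 0.979), came from 13 UMIs of 1 cell, with no UMI in the normal class.

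Il17a and Il4 were found in T-like classes whose make-up differed between the libraries. In normal, 7 Il17a UMIs of 2 cells lay in the Treg-like cluster, 0.29 (0.117 to 0.598), and both cells also held Trdc and Cd163l1 UMIs, which mark gamma delta T cells. In fibrosis, 28 Il17a UMIs of 6 cells lay in the CD4 or other T-like class, 0.885 (0.588 to 1.28), and 5 of the 6 held Cd163l1. Over all cells there were 36 Il17a UMIs in 6 normal and 29 in 7 fibrosis cells, and 27 of the normal ones lay outside the named classes in cells of the mitotic marker list, 26 of them in 1 cell, so these class levels do not show a rise of Il17a. No Il17a UMI was seen in the normal CD4 or other T-like class or the fibrosis Treg-like class. Il4 was counted 87 times in 50 of 271 normal CD4 or other T-like cells, 0.737 (0.59 to 0.909), and 25 of those 50 also held Zbtb16, a factor of NKT cells. The fibrosis class had no Il4 UMI, a level at least 7.78-fold lower. Because the class was led by different genes in the libraries, a change within 1 cell type and a change in the mixture cannot be told apart for these members. Il13 had 6 UMIs in normal and none in fibrosis, and Il22 had 1 UMI in each library.

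Inhibitors and decoys of the IL-1 family shared their leading classes with Il1b and Il18. Il1rn was led by neutrophil-like cells, 2.69 in normal and 4.93 in fibrosis (ratio 1.83, 1.41 to 2.37), with 2.57 in normal migratory DC-like cells, and cholangiocyte-like cells held 0.16 in normal and 0.811 in fibrosis (ratio 5.06, 3.65 to 7.13). Il1r2, a decoy that binds IL-1 without signalling, was 5.93 in normal and 8.14 in fibrosis (ratio 1.37, 1.14 to 1.65) in neutrophil-like cells and at most 0.0835 in any other normal class. Il18bp was led by Kupffer-like cells, 8.03 in normal and 8.88 in fibrosis (ratio 1.11, 1.03 to 1.19), the class that also led its target Il18. A UMI of Il18bp was found in 53.4% (45.8 to 60.9) and 54.4% (47.3 to 61.3) of thinned Kupffer-like cells (unthinned 95.5% and 99.5%, medians 7421 and 10232.5 UMIs) against 1.73% (0.834 to 3.16) and 10.2% (7.31 to 13.7) of thinned B-cell-like cells (unthinned 5.19% and 21.5%). In monocyte-like cells the level of Il18bp was 0.15 in normal and 2.49 in fibrosis (ratio 16.6, 8.68 to 36.4), with 2.75 and 0.983 in the fibrosis clusters of 269 and 105 cells (ratio 6.54 (3.14 to 15.3) for the latter), while the macrophage markers of that class were at 19.8 and 114. Il18bp was also at least 2 times higher in fibrosis in 13 other classes, which are taken up below.

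The decoys Tnfrsf11b, Il13ra2 and Tnfrsf22 were led by mesenchymal-like and endothelial-like cells. Tnfrsf11b (osteoprotegerin), which binds RANKL and TRAIL, was led by stellate/fibroblast-like cells at 2.71 in normal and 2.78 in fibrosis (ratio 1.03, 0.88 to 1.2), and fibrosis mesothelial-like cells held 1.11. The parts of the class moved in opposite directions, since Tnfrsf11b was 3.8 in normal and 8.52 in fibrosis (ratio 2.24, 1.85 to 2.73) in stellate clusters and 1.41 in normal and 0.412 in fibrosis (ratio 0.293, 0.195 to 0.44) in portal fibroblast clusters. Il13ra2, the IL-13 decoy, was led by LSEC-like cells in normal and central vein EC-like cells in fibrosis. It was 0.214 in normal and 0.263 in fibrosis (ratio 1.23, 1.02 to 1.49) in LSEC-like cells. In central vein EC-like cells it was 0.0651 in normal and 0.867 in fibrosis (ratio 13.3, 6.33 to 33.6), with 7 and 175 UMIs. The endothelial markers of central vein EC-like cells were at 137 and 130. Tnfrsf22, a decoy for TRAIL, was led by portal vessel EC-like cells, 0.212 in normal and 0.284 in fibrosis (ratio 1.34, 0.766 to 2.33), and was 0.0651 in normal and 0.218 in fibrosis (ratio 3.35, 1.5 to 8.81) in central vein EC-like cells.

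**Figure D2:**
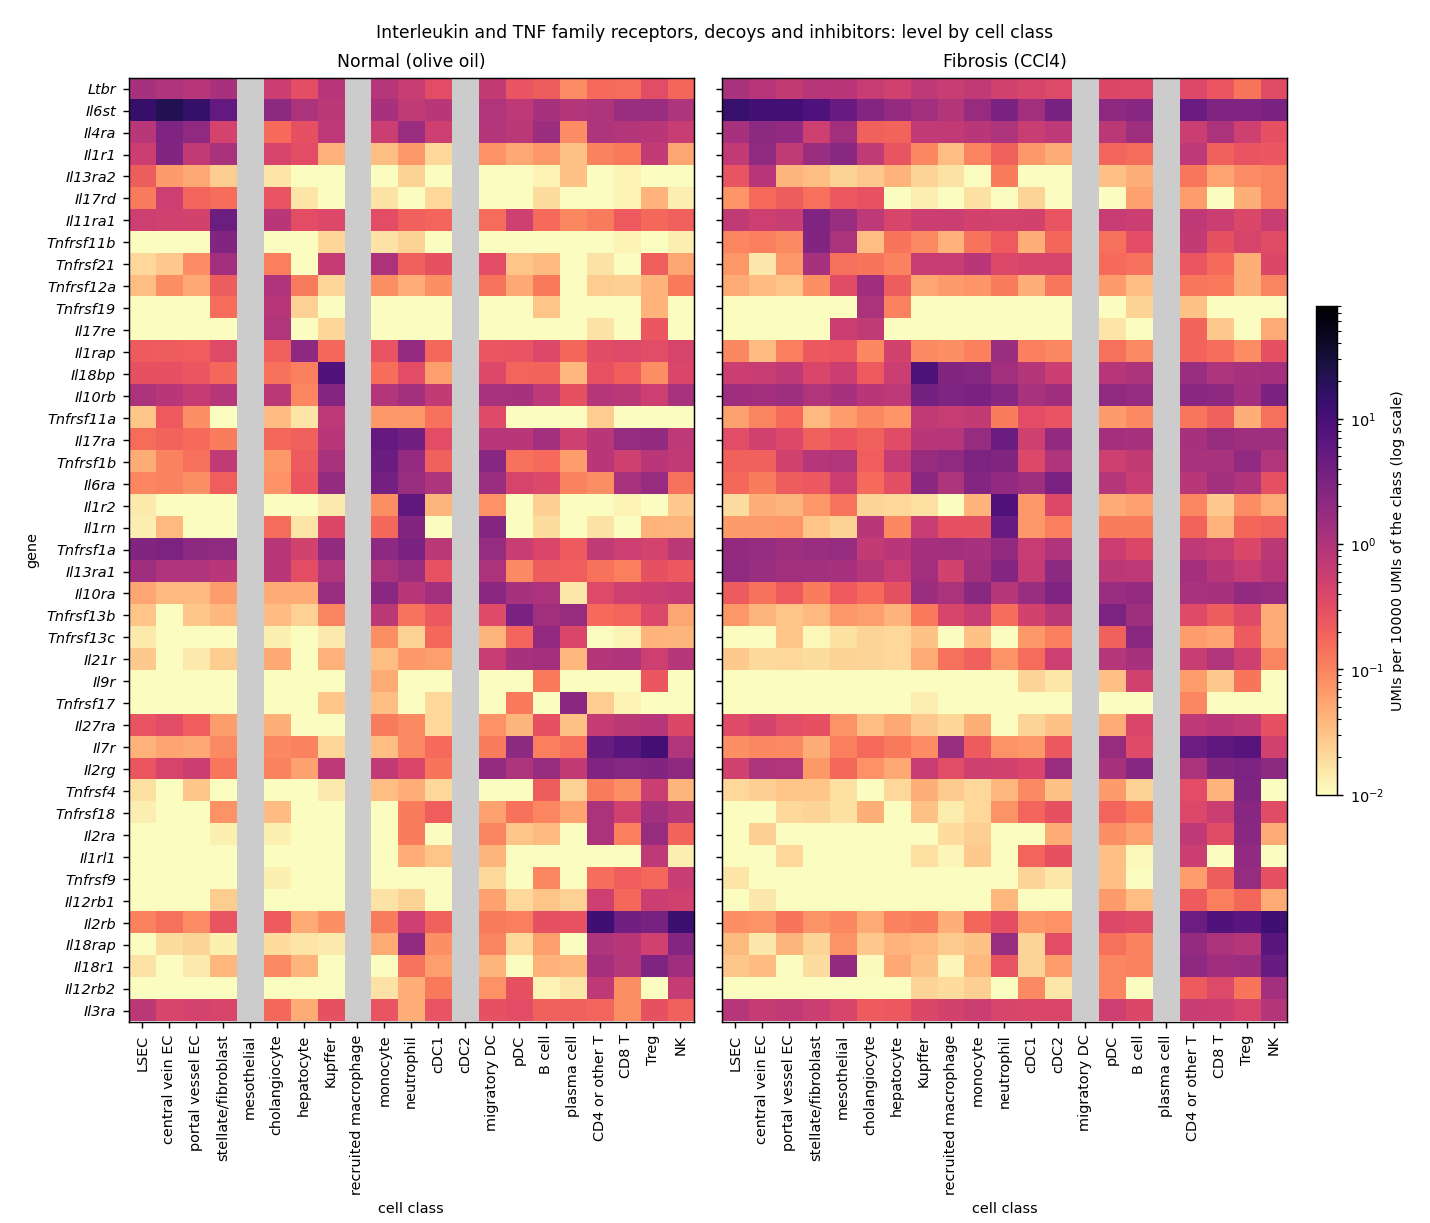
Heat maps of the level (UMIs per 10000 UMIs of the class, log colour scale) in the cell classes, columns, of the normal and the fibrosis library. Rows are the receptors, decoys and inhibitors whose highest class level was at least 0.5 in either library. Levels at or under 0.01 have the palest colour, and grey columns are classes under 50 cells in that library. Il6st is dark in the 3 endothelial classes, Il2rb and Il18rap in NK-like cells, Il18bp in Kupffer-like cells, and many rows are darker across the lymphoid classes of the fibrosis library.

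The IL-1 family receptors were spread over endothelial, mesenchymal, myeloid and lymphoid classes. For IL-1, the signalling receptor Il1r1 was highest in central vein EC-like cells, 2.73 in normal and 2.01 in fibrosis (ratio 0.738, 0.634 to 0.861), and in fibrosis mesothelial-like cells, 2.32 (2.1 to 2.56), with 1.18 in normal and 1.67 in fibrosis (ratio 1.42, 1.13 to 1.79) in stellate/fibroblast-like cells. Neutrophil-like cells, which led the ligand Il1b, held 0.0679 and 0.191. Il1rap, the accessory chain, was led by hepatocyte-like cells in normal and by neutrophil-like cells in fibrosis, with 2.15 in normal and 0.465 in fibrosis (ratio 0.217, 0.154 to 0.298) in the former and 1.81 in normal and 1.53 in fibrosis (ratio 0.844, 0.562 to 1.25) in the latter. Il1rl1 (ST2), the receptor of Il33, was led by Treg-like cells at 0.746 in normal and 1.94 in fibrosis (ratio 2.6, 1.47 to 4.77), where 21 of 44 fibrosis UMIs came from 1 cell, and the CD4 or other T-like class had no UMI in normal and 18 in fibrosis (at least 22.4-fold higher). Il1rl2, the IL-36 receptor, was 0.0404 in normal and 0.178 in fibrosis (ratio 4.4, 1.3 to 18.9) in pDC-like cells, on 11 fibrosis UMIs. Fibrosis Treg-like cells held nearly the same level, 0.176, and no fibrosis class was higher. The IL-18 receptor chains Il18r1 and Il18rap were led by NK-like cells in fibrosis. Il18r1 was 1.45 in normal and 4.89 in fibrosis (ratio 3.37, 2.54 to 4.47) and Il18rap 2.65 in normal and 6.77 in fibrosis (ratio 2.56, 2.04 to 3.2) in NK-like cells, whereas normal Treg-like cells led Il18r1 with 2.94 and fibrosis mesothelial-like cells held 1.91. Il18rap was also counted in neutrophil-like cells, 2.04 in normal and 1.68 in fibrosis (ratio 0.825, 0.562 to 1.2).

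Receptors of the gp130 group were led by endothelial-like, stellate-like, myeloid and, for Il27ra, T-like classes. Il6st (gp130), the shared signal chain, was 22.2 in normal and 11.5 in fibrosis (ratio 0.518, 0.489 to 0.549) in central vein EC-like cells. In LSEC-like cells it was 14.7 in normal and 14.2 in fibrosis (ratio 0.967, 0.944 to 0.991). In portal vessel EC-like cells it was 15.1 in normal and 11.5 in fibrosis (ratio 0.762, 0.708 to 0.819). Of the 3 endothelial classes, the central vein class differed most between the libraries and the LSEC-like class least. A UMI of it was found in 70.1% (67.9 to 72.2) and 73% (70 to 75.9) of LSEC-like cells after thinning, against 13.3% (10.7 to 16.4) and 22.5% (18.4 to 27.1) of B-cell-like cells (unthinned 96.8% and 99.1% against 29.8% and 42.6%). In neutrophil-like and NK-like cells Il6st was 0.702 in normal and 3.21 in fibrosis (ratio 4.57, 3.0 to 7.14) and 1.06 in normal and 3.31 in fibrosis (ratio 3.12, 2.22 to 4.38), the former ratio being 1.29 (1.02 to 1.62) once the neutrophil clusters set aside above were added, and the endothelial markers in these classes were at 14.6 and 27.5 and at 15.3 and 27.5, a movement in the same direction whose part was not tested. Il6ra, which binds Il6 itself, was led by monocyte-like cells in normal, 3.71 in normal and 2.62 in fibrosis (ratio 0.706, 0.607 to 0.823), and by cDC2-like cells in fibrosis, 3.19 (2.77 to 3.66). Its direction differed between the fibrosis monocyte clusters, with a ratio of 0.598 (0.51 to 0.702) for that of 269 and 1.33 (1.1 to 1.62) for that of 105 cells. The endothelial classes with most Il6st held little Il6ra, for example 0.0959 and 0.166 in LSEC-like cells. Il11ra1, led by stellate/fibroblast-like cells at 4.35 in normal and 2.88 in fibrosis (ratio 0.662, 0.582 to 0.755), has near-identical copies in the mouse genome, so its counts are uncertain. Its ratio was 1.33 (0.968 to 1.84) in stellate and 0.413 (0.352 to 0.484) in portal fibroblast clusters. Il27ra was led by Treg-like cells in normal and CD8 T-like cells in fibrosis, 0.871 in normal and 0.749 in fibrosis (ratio 0.86, 0.426 to 1.71) in the former, and was 0.0641 in normal and 0.294 in fibrosis (ratio 4.59, 1.89 to 14.5) in stellate/fibroblast-like cells.

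Receptors of the common gamma chain group marked the lymphoid classes. Il2rb, shared by IL-2 and IL-15, was 13.2 in normal and 12 in fibrosis (ratio 0.904, 0.782 to 1.04) in NK-like cells. In CD8 T-like cells it was 4.02 in normal and 8.42 in fibrosis (ratio 2.1, 1.83 to 2.4). In CD4 or other T-like cells it was 11.9 in normal and 4.42 in fibrosis (ratio 0.373, 0.311 to 0.444). The CD8 and the CD4 or other T-like classes thus differed in opposite directions between these libraries. The CD4 or other T-like class was led by different genes in each library. The normal CD8 T-like class held a cluster of 117 cells led by Dapl1 and Nsg2 and one of 104 cells led by Gzmk and Cd8b1. A change within a cell type and a change in the mixture cannot be told apart for the T-like values of this group. Il7r was 10.9 in normal and 7.18 in fibrosis (ratio 0.661, 0.54 to 0.807) in Treg-like cells. In CD8 T-like cells it was 6.98 in normal and 5.86 in fibrosis (ratio 0.839, 0.739 to 0.953). Il2ra, which makes the IL-2 receptor high in affinity, was led by Treg-like cells at 1.74 in normal and 2.25 in fibrosis (ratio 1.29, 0.841 to 1.99), and CD8 T-like cells held 0.109 in normal and 0.342 in fibrosis (ratio 3.13, 1.41 to 7.63). Il2rg, the gamma chain, was 2.93 in normal and 1.14 in fibrosis (ratio 0.388, 0.267 to 0.548) in CD4 or other T-like cells. In central vein EC-like cells it was 0.437 in normal and 1.04 in fibrosis (ratio 2.38, 1.73 to 3.34). Its counts are uncertain because the gene overlaps Gm20489 on the same strand. Il21r was led by B-cell-like cells at 1.29 in normal and 1.2 in fibrosis (ratio 0.929, 0.729 to 1.18), and in NK-like cells it was 0.90 in normal and 0.0989 in fibrosis (ratio 0.11, 0.013 to 0.413). Il9r was 0.122 in normal and 0.508 in fibrosis (ratio 4.16, 2.41 to 7.44) in B-cell-like cells. Il15ra, which presents Il15 to other cells, had a flat profile, with a highest level of 0.395 (0.241 to 0.61) in normal migratory DC-like cells and 0.248 in normal and 0.0827 in fibrosis (ratio 0.333, 0.132 to 0.741) in hepatocyte-like cells. Il4ra was instead led by endothelial classes, 2.89 in normal and 2.21 in fibrosis (ratio 0.764, 0.66 to 0.886) in central vein EC-like cells. In portal vessel EC-like cells it was 2.03 in normal and 1.94 in fibrosis (ratio 0.954, 0.79 to 1.15). Its partner Il13ra1 was 1.46 in normal and 2.04 in fibrosis (ratio 1.39, 1.3 to 1.5) in LSEC-like cells. In neutrophil-like cells it was 1.58 in normal and 2.6 in fibrosis (ratio 1.64, 1.16 to 2.32).

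Among receptors of the IL-10, IL-12, IL-17 and IL-3 groups, Il10ra was highest in normal migratory DC-like cells, 2.25 (1.86 to 2.7), and fibrosis cDC2-like cells, 2.92 (2.52 to 3.37), with 2.24 in normal and 2.37 in fibrosis (ratio 1.06, 0.877 to 1.28) in monocyte-like cells. Il10rb, the shared chain, was 2.58 in normal and 3.69 in fibrosis (ratio 1.43, 1.26 to 1.62) in Kupffer-like cells. In monocyte-like cells, where the macrophage markers were at 19.8 and 114, it was 0.935 in normal and 3.26 in fibrosis (ratio 3.49, 2.66 to 4.65), and 2.1 (1.48 to 3.0) was the ratio without the fibrosis cluster of 269 cells. The gene shares exon sequence with Gm21970, so its counts are uncertain. Il22ra1, the specific chain of the IL-22 receptor, had 1 and 2 UMIs. Il12rb1 and Il12rb2, the IL-12 receptor chains, were T-cell and NK-cell transcripts. In NK-like cells Il12rb1 was 0.51 in normal and 0.0494 in fibrosis (ratio 0.0969, 0.00239 to 0.573). Il12rb2 there was 0.645 in normal and 1.33 in fibrosis (ratio 2.07, 1.24 to 3.39), in the opposite direction. The highest fibrosis level of Il12rb1 in any class, 0.221, rested on 7 UMIs, and its NK-like value on fewer. The NK-like clusters differed between the libraries, so a change within NK cells and a change in the mixture cannot be told apart. In CD4 or other T-like cells Il12rb1 was 0.534 in normal and 0.221 in fibrosis (ratio 0.414, 0.16 to 0.905) and Il12rb2 0.746 in normal and 0.221 in fibrosis (ratio 0.297, 0.116 to 0.637). Il23r was led by Treg-like cells in normal, 0.456 on 11 UMIs with none in fibrosis, and in fibrosis had 8 UMIs in CD4 or other T-like cells, 0.253, with none in normal, as with Il17a. Il17ra, the common IL-17 receptor, was 5.01 in normal and 1.78 in fibrosis (ratio 0.354, 0.307 to 0.41) in monocyte-like cells. In neutrophil-like cells it was 3.87 in normal and 4.58 in fibrosis (ratio 1.18, 0.93 to 1.5). The fibrosis monocyte clusters differed, with 1.19 in that of 269 and 5.17 in that of 105 cells, and the ratio was 1.03 without the former and 1.17 for the class at a resolution of 0.4. Il17re was led by cholangiocyte-like cells, 0.98 in normal and 0.711 in fibrosis (ratio 0.725, 0.585 to 0.894), and in fibrosis reached 0.563 in mesothelial-like cells. Il17rd was 0.53 in normal and 0.164 in fibrosis (ratio 0.308, 0.195 to 0.482) in central vein EC-like cells. In cholangiocyte-like cells it was 0.263 in normal and 0.278 in fibrosis (ratio 1.06, 0.728 to 1.52). Il3ra was 0.803 in normal and 0.922 in fibrosis (ratio 1.15, 1.04 to 1.27) in LSEC-like cells. In NK-like cells it was 0.201 in normal and 0.939 in fibrosis (ratio 4.66, 2.25 to 9.86).

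Of the TNF receptors, Tnfrsf1a, which binds Tnf in most tissues, was 2.77 in normal and 1.92 in fibrosis (ratio 0.695, 0.653 to 0.739) in LSEC-like cells. In central vein EC-like cells it was 3.12 in normal and 1.79 in fibrosis (ratio 0.574, 0.493 to 0.668). In neutrophil-like cells it was 3.17 in normal and 1.87 in fibrosis (ratio 0.591, 0.418 to 0.823). The level was lower in fibrosis in these 3 classes. Tnfrsf1b, the receptor of membrane Tnf, was led by monocyte-like cells at 4.54 in normal and 3.09 in fibrosis (ratio 0.681, 0.594 to 0.783). The fibrosis monocyte clusters of 269 and 105 cells held 2.51 and 6.48, on either side of the normal level. Neutrophil-like cells, which led Tnf in fibrosis, held Tnfrsf1b at 2.79 there. LSEC-like cells held Tnfrsf1b at 0.0475 in normal and 0.191 in fibrosis (ratio 4.03, 2.91 to 5.68). Ltbr, the lymphotoxin receptor, was 1.26 in normal and 1.15 in fibrosis (ratio 0.906, 0.832 to 0.986) in LSEC-like cells. In stellate/fibroblast-like cells it was 1.21 in normal and 0.868 in fibrosis (ratio 0.72, 0.564 to 0.925), and B-cell-like cells, a main source of Ltb, held 0.213 and 0.372. Tnfrsf11a (RANK) was 0.758 in normal and 0.696 in fibrosis (ratio 0.919, 0.712 to 1.19) in Kupffer-like cells. In monocyte-like cells it was 0.0668 in normal and 0.655 in fibrosis (ratio 9.81, 3.77 to 36.4), with 0.74 and 0.164 in the fibrosis clusters of 269 and 105 cells. In central vein EC-like cells it was 0.233 in normal and 0.0991 in fibrosis (ratio 0.426, 0.224 to 0.799). The class with most Tnfrsf11a thus differed less than the other two. Tnfrsf12a, the receptor of Tnfsf12, was led by cholangiocyte-like cells, 1.01 in normal and 1.43 in fibrosis (ratio 1.42, 1.2 to 1.68), and Tnfrsf19 followed the same class, 0.874 in normal and 1.12 in fibrosis (ratio 1.28, 1.06 to 1.54). In stellate/fibroblast-like cells Tnfrsf12a was 0.218 in normal and 0.082 in fibrosis (ratio 0.376, 0.191 to 0.754), with a ratio of 0.085 (0.0202 to 0.275) in portal fibroblast clusters, but 1.14 times higher when broad classes were used. Tnfrsf21 (DR6) was 1.4 in normal and 1.24 in fibrosis (ratio 0.887, 0.713 to 1.11) in stellate/fibroblast-like cells. The parts of that class differed, with 2.57 in normal and 1.87 in fibrosis (ratio 0.728, 0.531 to 0.993) in stellate clusters, and no UMI in normal against 96 UMIs and a level of 0.746 in fibrosis in portal fibroblast clusters. In monocyte-like cells Tnfrsf21 was 1.1 in normal and 0.81 in fibrosis (ratio 0.735, 0.557 to 0.981), and the ratio was 0.668 (0.501 to 0.899) and 1.13 (0.769 to 1.64) for the fibrosis clusters of 269 and 105 cells. Tnfrsf10b, the TRAIL death receptor, reached 0.25 (0.181 to 0.336) in fibrosis mesothelial-like cells and 0.207 in normal Treg-like cells.

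Receptors of the B-cell factors were split between pDC-like, plasma-cell-like and B-cell-like cells. Tnfrsf13b (TACI) was 3.24 in normal and 3.12 in fibrosis (ratio 0.962, 0.80 to 1.15) in pDC-like and 1.37 in normal and 1.5 in fibrosis (ratio 1.1, 0.879 to 1.37) in B-cell-like cells, with 1.69 in normal plasma cell-like cells. Tnfrsf13c (BAFF receptor) was 1.96 in normal and 2.29 in fibrosis (ratio 1.17, 0.976 to 1.4) in B-cell-like cells. Tnfrsf17 (BCMA) was 2.26 (2.01 to 2.54) in the 92 normal plasma cell-like cells, a class of 15 cells in fibrosis. The co-stimulatory receptors of T cells were led by Treg-like cells, except for Tnfrsf9 in normal, which was led by NK-like cells at 0.591 (0.429 to 0.793). In Treg-like cells Tnfrsf4 (OX40) was 0.58 in normal and 2.99 in fibrosis (ratio 5.16, 2.87 to 9.93), Tnfrsf9 (4-1BB) 0.166 in normal and 1.76 in fibrosis (ratio 10.6, 3.84 to 40.9) and Tnfrsf18 (GITR) 1.33 in normal and 2.42 in fibrosis (ratio 1.83, 1.16 to 2.92). A change within Treg cells and a change in the mixture of this class cannot be told apart. Of the 75 fibrosis Treg-like cells, 24 held a Tnfrsf4 UMI and 14 a Tnfrsf9 UMI, and 20 of 40 Tnfrsf9 UMIs came from 1 cell. NK-like cells held Tnfrsf18 at 0.913 in normal and 0.346 in fibrosis (ratio 0.379, 0.147 to 0.824) and B-cell-like cells Tnfrsf4 at 0.213 in normal and 0.0226 in fibrosis (ratio 0.106, 0.0123 to 0.411). Tnfrsf8 (CD30) had no UMI in normal and 6 in fibrosis Treg-like cells (at least 2.12-fold higher). Tnfrsf26 was 0.437 in normal and 0.479 in fibrosis (ratio 1.1, 0.668 to 1.8) in CD8 T-like cells. In Kupffer-like cells it was 0.0794 in normal and 0.198 in fibrosis (ratio 2.49, 1.26 to 5.34). Tnfrsf14 (HVEM), the receptor of Tnfsf14, had 36 and 45 UMIs and no class level over 0.0415. Il4i1 was led by migratory DC-like cells in normal, 1.84 (1.48 to 2.25), and by B-cell-like cells in fibrosis, 0.561 in normal and 0.44 in fibrosis (ratio 0.784, 0.525 to 1.15), and part of its sequence is shared with Nup62.

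**Figure D3:**
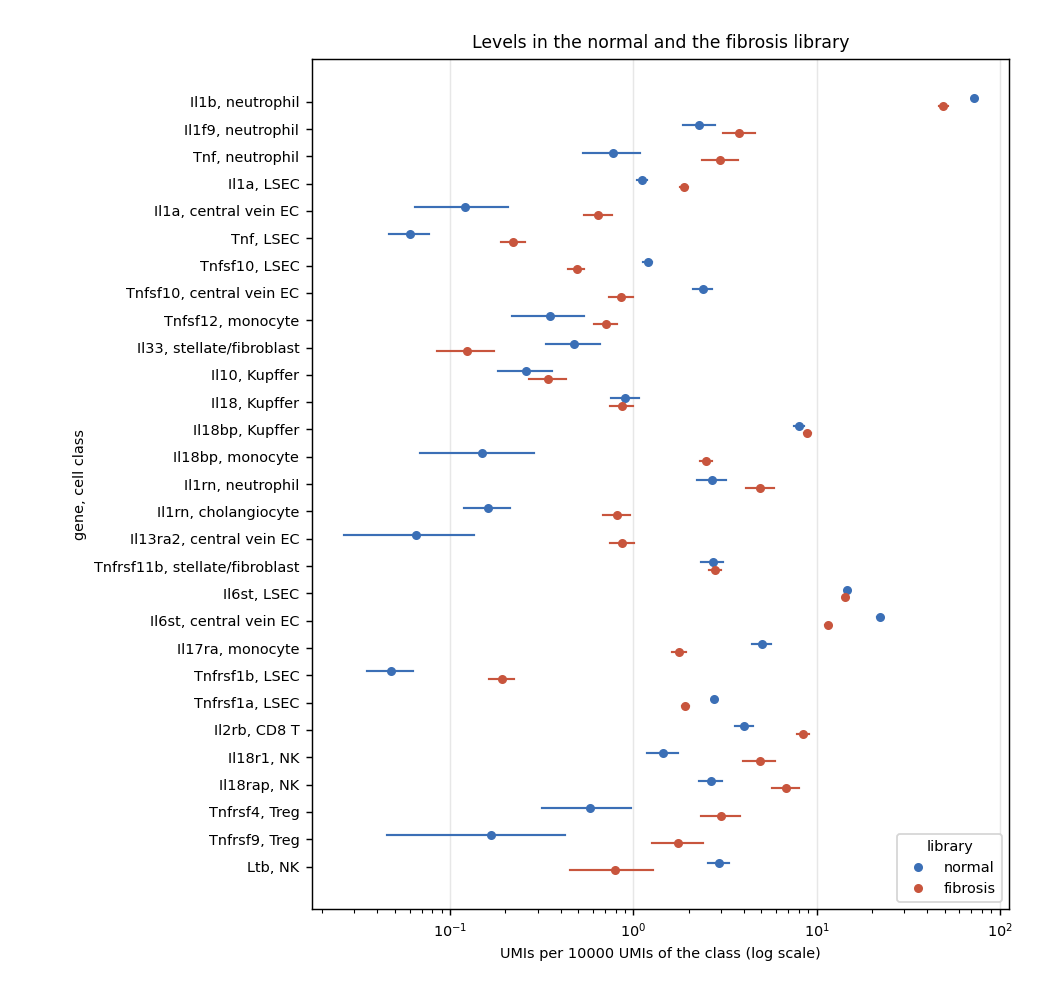
Level (UMIs per 10000 UMIs of the class, log axis) of 29 member and class pairs, one row each, in the normal (blue) and the fibrosis (red) library; lines are exact 95% counting intervals of 1 library, not spread between mice. Il1b, Il18bp in Kupffer-like cells, Tnfrsf11b in stellate/fibroblast-like cells and Il6st in LSEC-like cells keep their order of magnitude, while Tnf and Tnfrsf1b in LSEC-like cells, Il13ra2 and Il1a in central vein EC-like cells and Tnfrsf4 in Treg-like cells lie to the right in fibrosis and Tnfsf10 in endothelial classes to the left.

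Leading classes were given for 76 members in normal and 77 in fibrosis, of which 41 and 44 reached a level of 1. For the 67 members with a leading class in both libraries, it was the same class for 36 and another for 31. Some of the 31 were led in one library by a class that had under 50 cells in the other, as for Il33, Il6ra and Tnfsf12. Outside the naming rule were 25 members, whose highest level in any class of either library was 0.622. They were Il11, Il12a, Il17f, Il17rb, Il17rc, Il1bos, Il1f6, Il1f8, Il1rapl1, Il2, Il20, Il20ra, Il20rb, Il22ra2, Il23a, Il25, Il31ra, Il5, Il5ra, Tnfrsf23, Tnfrsf25, Tnfsf13os, Tnfsf18, Tnfsf4 and Tnfsf8. Il1f6, Il1f8 and Il20 were not listed in the normal table, and Il13, Il25 and Il5 were not listed in the fibrosis table. With these, 15 members in normal and 12 in fibrosis had under 10 UMIs over the whole library, so their sources could not be read at this depth.

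Ratios were counted for genes with a mean level of at least 0.1 over the libraries, and a gene was counted as higher or lower in fibrosis where its level differed at least 2 times with an interval that left out 1. Over the 17 classes, 167 of 631 member and class pairs (26.5%) were higher, against 13.5% of all genes, and 49 (7.77%) were lower, against 6.62%. Erythroid-like and hepatocyte-like cells stood apart: the fibrosis erythroid-like cells had a median of 999 UMIs, their erythroid markers were at 3967 in normal and 91.8 in fibrosis, and the median ratio of all genes was 2.09 there and 1.75 in hepatocyte-like cells. Without both classes, 133 of 570 pairs (23.3%) were higher, against 9.25% of all genes, and 46 (8.07%) were lower, against 6.75%. Members were thus counted as higher more often than the genes at large, and as lower about as often, a difference for which no test was made. Of the 133 pairs that were higher, 21 were in the class with the highest level of the member in fibrosis, whatever its UMI count. Of the same pairs, 98 (73.7%) stayed under 50% of that level, with a median of 25.1% of it. Of the 46 that were lower, 14 were in the class with the highest level of the member in normal. A member has a single such class among all those in which it was tested. The same shares were not counted over all 570 pairs, so these counts do not show that differences lay mostly outside the source classes.

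In each of the 3 endothelial classes, a larger share of the tested members than of all genes was higher in fibrosis, a difference for which no test was made. In LSEC-like cells 4 of 31 tested members were higher (3.26% of all genes) and 2 lower (5.50%), the higher ones being Il10ra, 0.0523 in normal and 0.222 in fibrosis (ratio 4.24, 3.12 to 5.86), Tnfrsf1b, Tnf and Il17ra, 0.157 in normal and 0.334 in fibrosis (ratio 2.13, 1.75 to 2.6), and the lower ones Tnfsf10 and Il1rap. In central vein EC-like cells 6 of 31 tested members were higher (6.79% of all genes) and 5 lower (8.65%), with Il13ra2, Il1a, Tnfrsf22, Il17ra, Il2rg and Il18bp higher and Il1rap, Il1b, Il17rd, Tnfsf10 and Tnfrsf11a lower. The Il1b ratio there was 0.271, 0.164 to 0.439, and 1.5 without the 3 cells with most Il1b UMIs in each library, so that value rests on those cells. In portal vessel EC-like cells 6 of 33 tested members were higher (5.47% of all genes) and 1 lower (5.89%), the higher ones including Il10ra, 0.0366 in normal and 0.233 in fibrosis (ratio 6.37, 2.37 to 21.4), and Il10rb, 0.637 in normal and 1.47 in fibrosis (ratio 2.31, 1.76 to 3.05). Il10ra, Tnfrsf1b, Il17ra and Il18bp are led by myeloid classes, and the macrophage markers in the 3 endothelial classes were 4.75 and 15.1, 3.88 and 14.7, and 3.9 and 20.1, in the order given. Their part in these ratios was not tested.

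In stellate/fibroblast-like cells 2 of 31 tested members were higher (5.64% of all genes) and 5 lower (7.76%), with Il27ra and Il18bp higher and Il33, Il2rb, Tnfrsf12a, Il17d and Tnfsf10 lower. Il2rb there was 0.269 in normal and 0.0745 in fibrosis (ratio 0.277, 0.142 to 0.536), in a class whose normal stellate cluster was led by Ighm and Ccl5, genes of lymphoid cells. The macrophage markers in this class were at 11.3 and 11.3 and the hepatocyte markers at 125 and 9.05. In cholangiocyte-like cells 4 of 31 tested members were higher (4.05% of all genes) and 4 lower (3.45%), with Il1rn, Il10ra, Tnfrsf1b and Il6ra higher and Il2rb, 0.227 in normal and 0.050 in fibrosis (ratio 0.22, 0.0965 to 0.441), Il1b, Il1rap and Il18 lower. Kupffer-like cells had the fewest such members of the 17 classes, since 1 of 32 tested members were higher (4.72% of all genes) and 1 lower (4.43%), namely Tnfrsf26 and Tnf. In monocyte-like cells 9 of 33 tested members were higher (11.6% of all genes) and 3 lower (9.89%), with Il18bp, Il10, Tnfrsf11a, Il7r, 0.0334 in normal and 0.224 in fibrosis (ratio 6.71, 1.78 to 56.6), and Il1a leading the first group and Ltb, Il17ra and Il1rap making up the second. In neutrophil-like cells 6 of 39 tested members were higher (12.8% of all genes) and 1 lower (7.19%), with Il3ra, 0.0453 in normal and 0.42 in fibrosis (ratio 9.28, 2.03 to 86.2), Il6st, Il18bp, Tnf and Tnfsf9 among the former and Il15 the latter. In cDC1-like cells 10 of 37 tested members were higher (9.24% of all genes) and 0 lower (4.82%), and in pDC-like cells 10 of 32 tested members were higher (11.1% of all genes) and 1 lower (6.09%), where Il13ra1 was 0.091 in normal and 0.792 in fibrosis (ratio 8.71, 4.23 to 20.2), Il1r1 0.0505 in normal and 0.178 in fibrosis (ratio 3.52, 1.13 to 12.9) and Il12rb2, the lower one, 0.283 in normal and 0.097 in fibrosis (ratio 0.343, 0.116 to 0.844). The macrophage markers were at 5.15 and 10.2 in cholangiocyte-like, 19.8 and 114 in monocyte-like, 15.3 and 42.2 in neutrophil-like, 5.29 and 26.9 in cDC1-like and 5.56 and 24.1 in pDC-like cells, and their part in these ratios was not tested. In hepatocyte-like cells 6 of 24 tested members were higher (40.3% of all genes) and 2 lower (6.19%), and in erythroid-like cells 28 of 37 tested members were higher (53.7% of all genes) and 1 lower (4.96%).

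In the 5 lymphoid classes, 75 pairs were higher, of which 50 were of members led by a class that is not lymphoid in fibrosis. The share of such members among all tested pairs of these classes was not counted. In B-cell-like cells 12 of 39 tested members were higher (13.1% of all genes) and 2 lower (7.47%), with Tnfrsf11b, Il18bp, Il1a, Il9r and Tnfrsf1b, 0.165 in normal and 0.654 in fibrosis (ratio 3.97, 2.48 to 6.53), at the top and Tnfrsf4 and Il1rap lower. In CD8 T-like cells 14 of 44 tested members were higher (12.8% of all genes) and 1 lower (6.56%), with Il13ra1, 0.109 in normal and 0.862 in fibrosis (ratio 7.89, 3.91 to 18.1), and Il3ra, 0.085 in normal and 0.561 in fibrosis (ratio 6.61, 2.93 to 17.4), after Tnfrsf11b. In CD4 or other T-like cells 23 of 53 tested members were higher (17.7% of all genes) and 10 lower (10.4%), where Tnfrsf21 was 0.0169 in normal and 0.253 in fibrosis (ratio 14.9, 2.98 to 144) and Il6ra 0.0847 in normal and 0.853 in fibrosis (ratio 10.1, 4.72 to 23.3). In Treg-like cells 13 of 60 tested members were higher (8.36% of all genes) and 4 lower (6.09%), and in NK-like cells 13 of 44 tested members were higher (12.2% of all genes) and 6 lower (7.03%), where Il18 was 0.0134 in normal and 0.198 in fibrosis (ratio 14.7, 1.46 to 725) on 1 and 4 UMIs. The macrophage markers in these classes were at 8.79 and 37.8, 6.92 and 32.6, 5.74 and 52.3, 9.08 and 33.2 and 8.13 and 44.1, in the order given. Their mesenchymal markers were at 1.76 and 18, 1.41 and 15.8, 1.28 and 26.3, 2.24 and 15.7 and 1.49 and 21, and the part of both in these ratios was not tested. Median member ratios in these 5 classes ran from 1.31 in Treg-like to 1.5 in CD8 T-like cells, against 1.08 and 1.18 for all genes of the same classes.

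**Figure D4:**
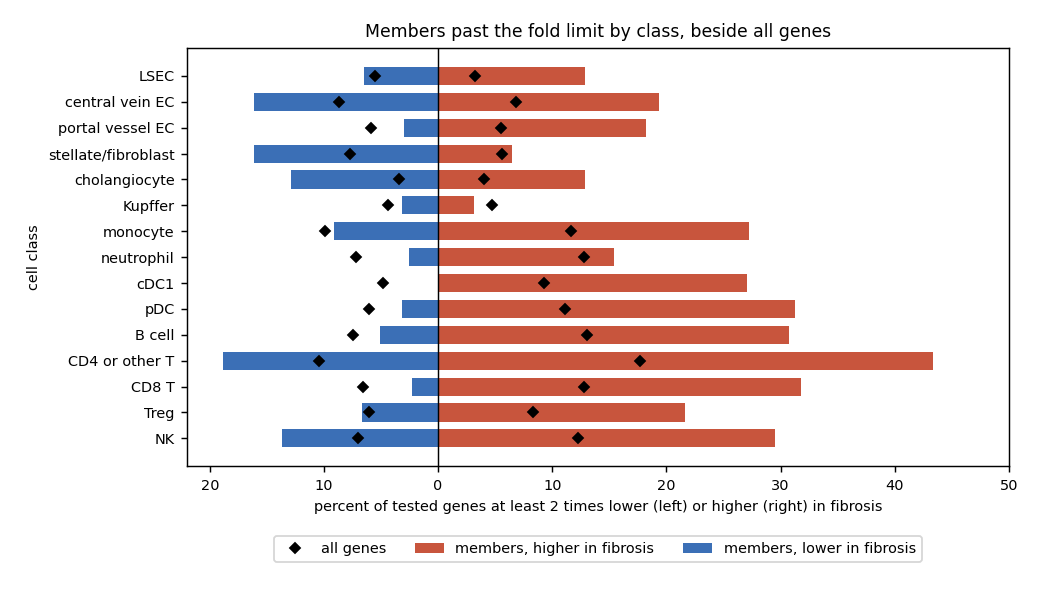
Percent of tested genes at least 2 times higher (red, right) or lower (blue, left) in the fibrosis library, by cell class, for members (bars) and for all genes (diamonds). Member bars pass the diamonds to the right in most classes, most in CD4 or other T-like cells (23 of 53), and Kupffer-like cells have 1 member on each side.

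Single members recurred across classes. Il18bp was higher in 14 of the 17 classes, for example in B-cell-like cells, 0.189 in normal and 1.09 in fibrosis (ratio 5.79, 3.83 to 8.98), in CD8 T-like cells, 0.206 in normal and 1.05 in fibrosis (ratio 5.11, 2.99 to 9.22), and in neutrophil-like cells, 0.317 in normal and 1.41 in fibrosis (ratio 4.46, 2.35 to 8.93), while its leading Kupffer-like level differed little. Tnfrsf11b was higher in 7 of the 8 classes in which it was tested, among them B-cell-like cells, 0.0061 in normal and 0.316 in fibrosis (ratio 51.8, 8.56 to 2118), on 1 and 28 UMIs, and not in its leading class as a whole. Il1rap was lower in 8 of 17 classes, with 0.372 in normal and 0.0903 in fibrosis (ratio 0.243, 0.10 to 0.509) in B-cell-like and 0.227 in normal and 0.0939 in fibrosis (ratio 0.414, 0.316 to 0.538) in LSEC-like cells, and was itself lower in its normal leading class, hepatocyte-like cells. The hepatocyte markers of that class were at 1697 in normal and 566 in fibrosis, and its median depth was 7767 and 2036 UMIs. Il10ra, Il10rb and Tnfrsf1b were each higher in 9 classes, and Il13ra1 and Il3ra in 7. The mesenchymal markers moved in the direction of Tnfrsf11b, the macrophage markers in that of Il18bp and the hepatocyte markers in that of Il1rap in all 9 classes plotted for these genes. The 9 were picked from the 17 compared classes. In stellate/fibroblast-like cells, which are not plotted, Il18bp was higher in fibrosis while the macrophage markers were at 11.3 in both libraries. In B-cell-like cells, macrophage markers were at 8.79 and 37.8, a step of the same direction as the Il18bp level of 0.189 and 1.09. The part of RNA from other cells in these repeated ratios was not tested.

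**Figure D5:**
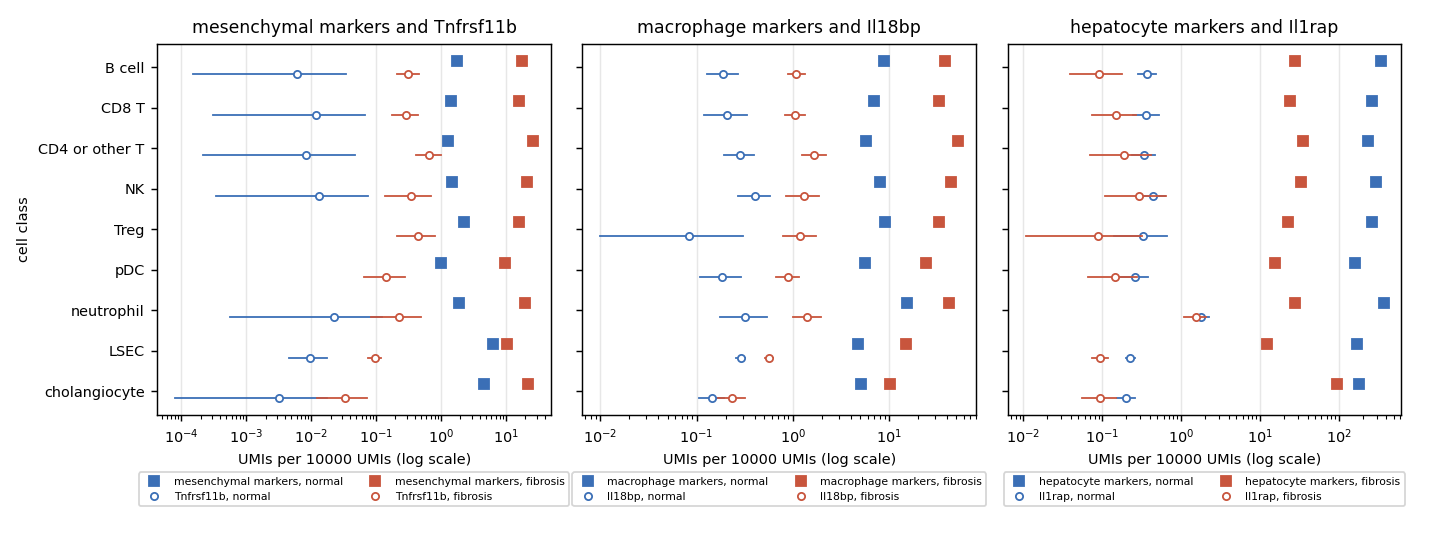
Level (UMIs per 10000 UMIs, log axes) in 9 classes of the summed markers of another cell type (squares) and of 1 member (circles with exact 95% counting intervals), in the normal (blue) and fibrosis (red) library: mesenchymal markers with Tnfrsf11b, macrophage markers with Il18bp, hepatocyte markers with Il1rap. Tnfrsf11b and Il18bp lie to the right in fibrosis with their marker lists, Il1rap to the left with its list; levels of 0 (normal Tnfrsf11b in Treg-like and pDC-like cells) are not drawn.

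Other genes of the pathways were taken from lists of 76 ligands, receptors, adaptors and signal genes. Over the 17 classes, 117 of 933 pairs (12.5%) were higher and 38 (4.07%) lower, against 13.5% and 6.62% of all genes. Without erythroid-like and hepatocyte-like cells, 69 of 842 pairs (8.19%) were higher and 34 (4.04%) lower, against 9.25% and 6.75%. In these 15 classes the NF-kB list had 26 of 135 pairs higher and 1 lower, the TNF receptor adaptors 13 of 165 and 3, the IL-1 and TLR adaptors 4 of 100 and 0, the inflammasome list 1 of 79 and 8, the JAK-STAT list 5 of 210 and 11, the other receptors 17 of 107 and 5, and the other ligands 3 of 46 and 6. Nfkbia, an inhibitor of NF-kB that NF-kB itself induces, was higher in 17 of 17 classes, with 4.52 in normal and 12 in fibrosis (ratio 2.66, 2.57 to 2.76) in LSEC-like and 3.92 in normal and 8.72 in fibrosis (ratio 2.23, 2.02 to 2.45) in Kupffer-like cells. Tnfaip3 (A20) and Birc3 (cIAP2) were each higher in 9 classes, Tnfaip3 with 0.397 in normal and 2.04 in fibrosis (ratio 5.13, 4.6 to 5.73) in LSEC-like cells. Pycard, the inflammasome adaptor, was lower in 6 of 16 classes, among them monocyte-like cells with 2.39 in normal and 1.07 in fibrosis (ratio 0.448, 0.366 to 0.55).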

How the data were processed

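Liver NPCs of 1 normal and 1 fibrotic mouse were measured by 10x scRNA-seq, 1 library each (3′ kit version 3, HiSeq 3000). The authors aligned reads to mm10 with Cell Ranger 3.0.1, a version credited to the submitters' processing notes, and deposited UMI counts per gene and cell without normalization; a table leaves out genes that had no UMI in that library. The normal table holds 8130 cells with 44062632 UMIs and that of fibrosis holds 6437 cells with 53288463 UMIs. The methods state that doublets had been excluded, Scrublet scores (expected rate 0.06) called 1 cell per library, and none was removed. The libraries share 15 cell barcodes.

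Cells were kept if they had over 200 genes and less than 10% mitochondrial UMIs, which left 7471 cells with 898 to 75847 UMIs and 6132 cells with 815 to 116430 UMIs. In each library, counts were scaled to 10000, transformed as ln(1 + x) and clustered with 2000 variable genes (no member among them), 10 principal components, 20 neighbours and Leiden at a resolution of 0.8, and broad classes were clustered again (Python 3.11.15, scanpy 1.11.5, leidenalg 0.10.2, scipy 1.17.1). A cluster took the marker list with the highest mean log2 fold if at least 3 of its markers were raised and its first 10 genes by fold did not hold 3 or more markers of another list that outnumbered its own, and endothelial sub-clusters with no finer name were counted as LSEC-like. This naming rule, and a rule that leaves clusters led by granulocyte precursor genes unnamed, were chosen after the data were seen. Sub-clusters in which the markers of another broad class had a mean log2 fold of at least 1 that passed that of their own list, or of at least 2 in any case, and those named by the mitotic marker list, stayed outside the named classes (976 and 1421 cells). With unnamed clusters and classes of under 50 cells, 1865 and 1611 cells were not used.

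Levels carry exact Poisson intervals, ratios exact conditional intervals and shares exact Clopper-Pearson intervals, and a count of 0 was bounded at 3 counts. With 1 library per condition no test was run. The members and all lists were chosen with earlier results of these data known. Numbers were given by rule for members with a level of at least 1 and 30 UMIs in a class, for the 5 most raised and 5 most lowered in each compared class and for a list of liver cytokines, 82 members in all. Gene positions come from the GENCODE annotation of the same build and promoters from RefSeq.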

Additional observations from a re-analysis of the deposited data

How the results depend on the processing

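No paired analysis was possible because each condition is 1 library, and for the same reason no library could be left out. Of 76 members in normal and 77 in fibrosis, 56 to 70 and 63 to 72 kept their leading class with other resolutions, no mitochondrial limit, members among the variable genes, without high doublet scores or without the 3 cells with most UMIs of the member. A mitochondrial limit of 5% left 1853 and 1705 cells, 25 and 28 kept leading classes, and 56 pairs higher and 17 lower against 167 and 49. A mean level of at least 0.5 left 51 higher and 16 lower, because fewer genes were counted. Without CD4 or other T-like, neutrophil-like, erythroid-like and hepatocyte-like classes, an alternative chosen after seeing the data as was the one without the latter 2 classes, 104 pairs were higher. In all other settings 128 to 239 pairs were higher and 34 to 64 lower, but not all were the same pairs: 73 of the 167 and 16 of the 49 stayed past the limits in broad classes, and 113 and 24 at resolution 0.4. As UMIs per cell, 69 pathway pairs were lower against 38. Unthinned shares of cells with a UMI were 96.8% and 99.1% for Il6st in LSEC-like cells (70.1% and 73.0% thinned) and 95.5% and 99.5% for Il18bp in Kupffer-like cells (53.4% and 54.4% thinned), by the depth itself.

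Of the ratios past the limits, those that changed direction were Il17ra in monocyte-like cells (1.17 at resolution 0.4), Tnfsf10 in stellate/fibroblast-like cells (1.07 without high doublet scores), Il12b in cDC1-like cells (0) and Il1b in central vein EC-like cells (1.5) without the 3 top cells, and Il4i1 in cDC1-like cells (0.356) and Tnfrsf12a in stellate/fibroblast-like cells (1.14) in broad classes. With other parts of classes, chosen after seeing the data, ratios past the limits that changed direction were Il17d in stellate clusters alone (1.15) and, without the fibrosis monocyte cluster led by antibody genes, Il17ra (1.03) and Tnfsf12 (0.467). Among ratios whose intervals left out 1 but that were not past the limits, so did, in the latter, Il6ra (1.33), Tnfrsf1b (1.43) and Tnfrsf21 (1.13), Il11ra1 in stellate (1.33) and Ltbr in portal fibroblast clusters (1.11), and Il6st in LSEC-like cells without the replication-led cluster (1.06). Without the 3 top cells, the lower bounds of Il4i1 in cDC1-like (0.774) and Tnfrsf11b in neutrophil-like cells (0.580), both with no normal UMI left, also fell under 1. The cause was not tested. Of 106 named ratios, the planned settings gave 35 (mitochondrial limit of 5%) to 106, and no other of those changed direction, while 28 of 102 without the 3 top cells and 21 of 96 at resolution 0.4 were no longer past the limits. Depth limits the members under 10 UMIs, for which no source could be read.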

Other observations

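Basophil/mast-like cells, of which there were 11 in normal and 9 in fibrosis and which were too few for the comparisons, held the highest Il6 levels of any class. Il6 was at 10.3 UMIs per 10000 in normal, with 44 UMIs in 8 of the 11 cells and 12 at most in 1 cell, and these 11 cells held 40.7% of the 108 Il6 UMIs of the library. In fibrosis it was at 3.69, with 13 UMIs in 6 of the 9 cells. The same cells held Il4 at 1.87 in normal and 1.42 in fibrosis, and Il1rl1, the receptor of Il33, at 4.25 in fibrosis with 15 UMIs in 6 cells. No Il13 UMI was found in them in normal.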
